A study of Mus musculus with 6 samples.

Results

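The Dok (downstream of tyrosine kinase) family of adaptor proteins was examined in RNAseq values of gastrocnemius muscle, the large muscle of the calf, from HrasG12V mice and their wild-type (WT) littermates. The 6 members *Dok1*, *Dok2*, *Dok3*, *Dok4*, *Dok5* and *Dok6* were found by gene symbol among the 23997 symbols of each library. *Dok1*, *Dok2* and *Dok3* formed the leukocyte members and *Dok4*, *Dok5* and *Dok6* the other members. The family was chosen by the FPKM difference of *Dok3* between the genotypes in these same libraries. The genotype differences of the members are therefore given as descriptions, with no test, and support nothing.

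A Dok protein carries a pleckstrin homology domain, a phosphotyrosine-binding (PTB) domain and a tail with tyrosines. Once phosphorylated, the tails of Dok1 and Dok2 recruit the Ras GTPase-activating protein p120RasGAP (Rasa1), which lowers Ras activity, together with Nck and Crk adaptors and the lipid phosphatase SHIP1 (Inpp5d). Dok3 lacks the RasGAP docking of its relatives and instead binds Grb2 and SHIP1, mainly in B cells and myeloid cells. Dok4, Dok5 and Dok6 are best known next to receptor tyrosine kinases such as Ret and the neurotrophin receptors, although Dok4 is also found in T cells, so the split between leukocyte and other members is not strict. The muscle member of the wider family, Dok7, activates the kinase Musk at the neuromuscular junction.

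Each genotype held 3 mice aged 21 days, untreated, with 1 library per mouse. HrasG12V mice (2276, 2278 and 2279) were Caggs-Cre+/HrasG12V/+, in which Cre driven by a ubiquitous promoter had switched 1 *Hras* allele to G12V under its own promoter in the tissues of the body. The WT mice (2277, 2280 and 2281) were Caggs-Cre-/HrasflG12V/+, so the controls carried the same knock-in allele before recombination and no Cre. The presence of Cre and the G12V change therefore cannot be told apart. All mice were of a mixed strain background, and the labels give no sex or litter. Values are FPKM, the fragments mapped to a gene scaled to the length of its transcript and to the mapped reads, which the authors normalized between libraries.

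The summed FPKM of a library ran from 413020 to 814013 and is not a depth, and read counts were not used here. Pearson's r of log2(FPKM + 0.1) between libraries lay between 0.918 and 0.928 within WT and between 0.844 and 0.878 within HrasG12V. HrasG12V mouse 2276 stood apart from its group, with r of 0.893 to 0.903 to the WT mice and of 0.844 and 0.852 to mice 2278 and 2279. It also had the highest summed FPKM, so some results are also given without it or for it alone. The targeted gene *Hras* was at 36.0 to 51.8 FPKM in the WT group against 58.8, 28.9 and 16.0 FPKM in HrasG12V mice 2276, 2278 and 2279 (log2 fold change -0.44, SE 0.47, limma adjusted p = 0.797), and FPKM sum both alleles. Among muscle fiber markers, *Tnnt3* was at 6893 FPKM or more in 5 libraries and listed at 0 in mouse 2276, and *Ryr1* was at 254 to 578 FPKM in all 6. *Acta1* and *Myh4* were listed at 0 in all 6 libraries, *Ckm* in 5, and *Myh1* in WT mice 2277 and 2280. Every entry of the deposited values carried the status OK. Since muscle fibers express these genes at high levels, an entry of 0 in these values may still be a failed estimate. Such a gene is called listed at 0 below.

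Mouse gene *Dok3*, the member with the widest difference, is the member whose promoter is shown. Of the 6 members, 1 matched the RefSeq promoter table of build GRCm38.p6, and the window below covers the 250 bases before the RefSeq start, at chr13:55528539-55528788 on the minus strand. GENCODE vM21 places the 5′ end of *Dok3* further upstream, at 55529296, so by that annotation the window lies inside the gene. Capitals mark each GGAA core of the ETS transcription factors, on either strand.

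Dok3 promoter: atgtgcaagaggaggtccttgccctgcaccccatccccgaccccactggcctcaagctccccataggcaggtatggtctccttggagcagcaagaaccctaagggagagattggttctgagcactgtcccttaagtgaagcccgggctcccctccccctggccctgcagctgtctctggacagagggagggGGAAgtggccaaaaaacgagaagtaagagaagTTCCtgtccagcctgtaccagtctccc

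The window held 2 GGAA cores. The first began at base -59 on the strand of the gene and was also the single match to GGAAGT, which contains GGAA, and the second began at base -27 on the other strand. These matches are common. Of 32851 promoter windows of the same length, 93.4% held at least 1 GGAA on either strand and 76.8% held 2 or more, and 19.7% held GGAAGT. The longer forms GAGGAA, found in 23.3% of windows, and GAGGAAGT, found in 2.44%, had no match in these letters.

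In the GENCODE vM21 annotation of GRCm38 the members lie on separate chromosomes. *Dok1* lies on chromosome 6 from 83030934 to 83033471 (minus strand), *Dok2* on chromosome 14 from 70766036 to 70778495 (plus strand) and *Dok3* on chromosome 13 from 55523231 to 55529296 (minus strand). *Dok4* lies on chromosome 8 from 94863828 to 94876330 (minus strand), *Dok5* on chromosome 2 from 170731807 to 170879769 (plus strand) and *Dok6* on chromosome 18 from 89292424 to 89769528 (minus strand). The leukocyte members have the longer coding sequences, 1446, 1236 and 1332 bases over 5, 5 and 6 exons for *Dok1*, *Dok2* and *Dok3*, against 975, 918 and 993 bases for *Dok4*, *Dok5* and *Dok6*, whose transcripts have 8 exons each.

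Reads of 50 bases were sequenced, so every word of 50 bases in the annotated transcripts of a member was looked up in the transcripts of all other genes. No member shared a word with another member. *Dok1*, *Dok2* and *Dok3* shared none with any gene, and *Dok5* and *Dok6* shared 1.45% and 0.0509% of their words. *Dok4* differed, since 760 of its 2996 words (25.4%) lay antisense in transcripts of *Polr2c*, a subunit gene of RNA polymerase II on the opposite strand. The libraries were stranded, but the strand setting of the authors' quantification is not given in the sources used here, so reads of this stretch may not be separable between the 2 genes.

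*Dok4* was the most abundant member in WT muscle by mean, and *Dok3* the least abundant of the members above 0. *Dok4* was at 6.06, 5.60 and 5.07 FPKM in WT mice 2277, 2280 and 2281 (5.58 ± 0.499, SD, n = 3). *Dok5* was at 4.57, 4.29 and 4.66 FPKM in the same mice (4.50 ± 0.195, SD, n = 3). The ranges of these 2 genes did not meet. *Dok1* was at 2.93, 6.07 and 4.296 FPKM (4.43 ± 1.57, SD, n = 3), a spread that reached across both *Dok4* and *Dok5*, so its place in the order is not fixed. *Dok2* (1.05, 1.19 and 1.23 FPKM) and *Dok3* (0.856, 0.954 and 1.32 FPKM) lay below all of these and overlapped each other. Among the 13359 genes kept for testing (mean FPKM of at least 0.5), 44.9% had a lower WT mean than *Dok4* and 11.96% a lower one than *Dok3*. *Dok6* was listed at 0 in all 3 WT mice and in 2 of the 3 HrasG12V mice, with 0.0259 FPKM in mouse 2278, so it did not pass the filter and has no fold change. The other 5 members passed.

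**Figure D1:**
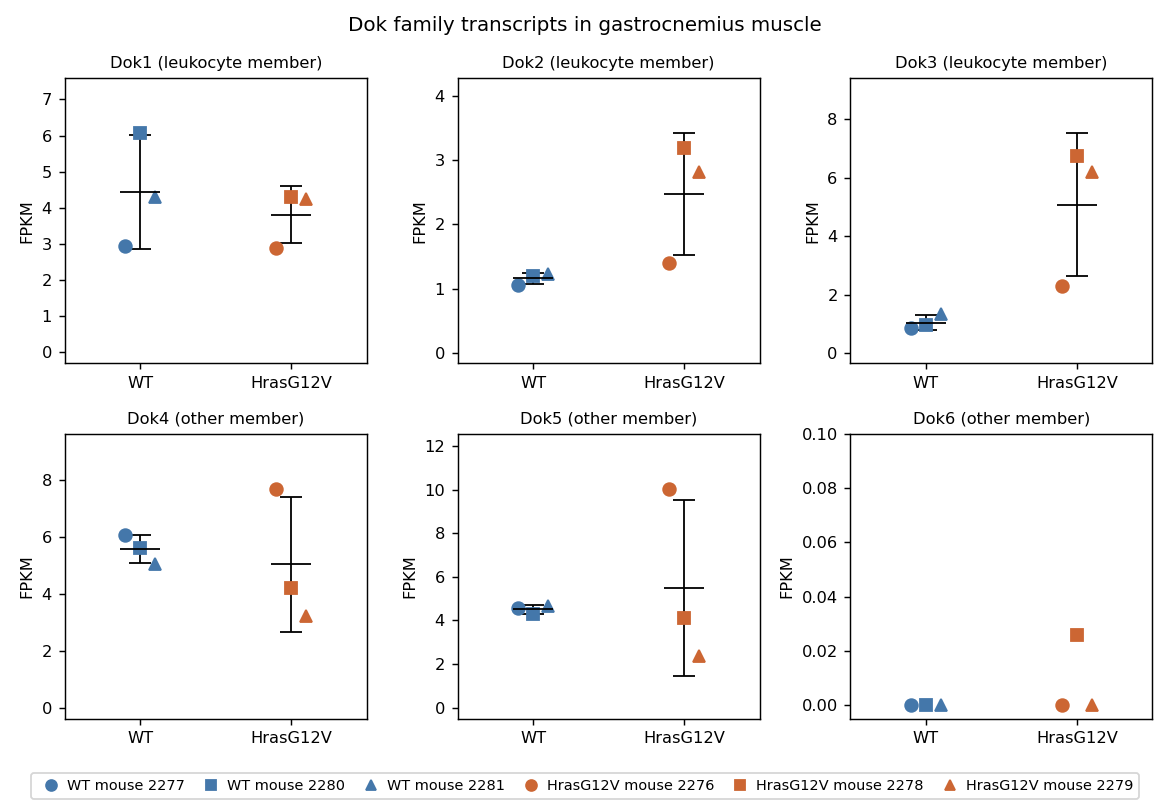
FPKM (y axis, linear, a scale of its own in each panel) of the 6 Dok members in the 3 WT and the 3 HrasG12V mice, 1 point per mouse. Horizontal and vertical bars give the mean and SD of 3 mice, except for Dok6, which has points only. Dok3 and Dok2 were higher in every HrasG12V mouse than in every WT mouse, whereas Dok1, Dok4 and Dok5 overlapped.

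*Dok3* showed the widest difference of the family. It was at 0.856, 0.954 and 1.32 FPKM in WT animals 2277, 2280 and 2281 and at 2.29, 6.75 and 6.21 FPKM in HrasG12V mice 2276, 2278 and 2279. Every HrasG12V mouse was above every WT mouse, and mouse 2276 lay closer to the WT mice than mice 2278 and 2279 did. These levels were 2.20, 6.46 and 5.95 times the WT mean. The fitted log2 fold change on the log2(FPKM + 0.1) scale was 2.06 (SE 0.43), a 4.16-fold higher level, and with mouse 2276 alone against the WT mice it was 1.09.

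*Dok2*, which curbs signaling in T cells and myeloid cells, had the same order of mice with smaller steps. It was at 1.05, 1.19 and 1.23 FPKM in WT animals 2277, 2280 and 2281 and at 1.40, 3.20 and 2.82 FPKM in HrasG12V mice 2276, 2278 and 2279. The genotypes did not overlap, but the gap between mouse 2276 and the highest WT mouse was narrow. Its log2 fold change was 0.96 (SE 0.33). With mouse 2276 alone it was 0.26, or 1.21 times the WT mean, against 2.76 and 2.43 times in mice 2278 and 2279.

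*Dok1*, the founding member and a binding partner of p120RasGAP, did not follow the other leukocyte members. It was at 2.90, 4.29 and 4.23 FPKM in HrasG12V mice 2276, 2278 and 2279, all within or just below the WT range of 2.93 to 6.07 FPKM. The log2 fold change was -0.18 (SE 0.30), and it changed sign to 0.0773 without WT mouse 2280, the highest of the 6, and to 0.00561 without mouse 2276. Of the 3 leukocyte members, 2 therefore had no overlap between genotypes, both with the higher level in HrasG12V. Among all genes tested, 8.11% had every HrasG12V mouse above and 10.4% every HrasG12V mouse below every WT mouse. Because this contrast led to the choice of the family, nothing is read from the count.

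The other members spread in both directions. *Dok4* was at 7.70 FPKM in HrasG12V mouse 2276, above every WT mouse, and at 4.198 and 3.21 FPKM in mice 2278 and 2279, below every WT mouse. *Dok5* was at 10.04 FPKM in mouse 2276, 2.23 times the WT mean, and at 4.09 and 2.35 FPKM in mice 2278 and 2279, again below the WT range. The 3 HrasG12V mice thus lay on both sides of the WT mice for both genes. The log2 fold changes of *Dok4* and *Dok5*, -0.24 (SE 0.32) and 0.0325 (SE 0.48), average over this split. Without mouse 2276 they were -0.59 and -0.52, and with mouse 2276 alone they were 0.46 and 1.14. *Polr2c*, which overlaps *Dok4*, was at 30.8, 27.6 and 33.2 FPKM in WT animals 2277, 2280 and 2281 and at 52.0, 20.7 and 28.8 FPKM in HrasG12V mice 2276, 2278 and 2279, also highest in mouse 2276, and its part in the *Dok4* values was not tested.

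**Figure D2:**
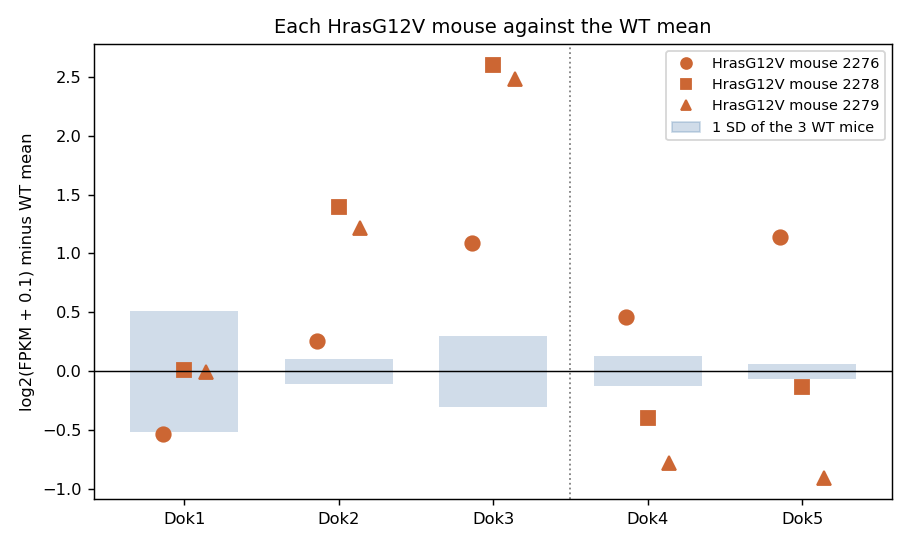
Difference of each HrasG12V mouse from the mean of the 3 WT mice on the log2(FPKM + 0.1) scale (y axis) for the 5 Dok members above the filter (x axis). Shaded bands give 1 SD of the WT mice, and a dotted line parts the leukocyte members from the others. Dok2 and Dok3 were highest in mice 2278 and 2279, whereas Dok4 and Dok5 were highest in mouse 2276 and lowest in mouse 2279.

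The spread between HrasG12V mice was wider than between WT mice for 4 of the 5 members above the filter. The coefficient of variation (SD as a percent of the mean) of *Dok5* was 73.3% in HrasG12V against 4.33% in WT mice, and that of *Dok4* was 46.9% against 8.95%. For *Dok3* it was 47.9% against 23.6% and for *Dok2* 38.3% against 7.95%. *Dok1* was the exception, with 20.7% against 35.5%.

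The make-up of the family differed between mice. Leukocyte members held 31.3%, 45.4% and 41.3% of the summed Dok FPKM in WT mice 2277, 2280 and 2281. They held 63.1% and 70.5% in HrasG12V mice 2278 and 2279 but 27.1% in mouse 2276, below every WT mouse. *Dok3* alone held 5.27% to 7.99% in WT mice, 9.43% in mouse 2276, and 29.9% and 33.0% in mice 2278 and 2279, in which it was the most abundant member. The ratio of *Dok3* to *Dok2* did not overlap between genotypes, at 0.812, 0.79998 and 1.08 in WT mice and 1.64, 2.11 and 2.20 in HrasG12V mice. Averaged over the members tested, the log2 fold change of the leukocyte members was 1.05 above that of the others, and it turned to -0.53 with mouse 2276 alone.

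Several leukocyte marker lists were highest in mice 2278 and 2279, as *Dok2* and *Dok3* were, but not all lists and not in mouse 2276. In bulk tissue, more cells of a type and more RNA per cell cannot be told apart. The summed FPKM of 6 markers of all leukocytes (*Ptprc*, *Coro1a*, *Laptm5*, *Cd53*, *Lcp1* and *Cd52*) was 13.4 to 16.5 in WT mice, 14.6 in HrasG12V mouse 2276, and 165 and 176 in mice 2278 and 2279. For 6 B cell markers it was 0.655 to 1.19 in WT mice, 1.37 in mouse 2276, and 81.9 and 65.7 in mice 2278 and 2279. For 7 T cell markers it was 0.783 to 1.06 in WT mice, 1.13 in mouse 2276, and 33.0 and 41.5 in mice 2278 and 2279. *Ms4a1*, the gene of the B cell antigen CD20, and *Cd8a*, the co-receptor of cytotoxic T cells, were listed at 0 in mouse 2276 and were at 0.0226 to 0.133 FPKM and 0.0439 to 0.0561 FPKM in WT mice. In the same mouse *Cd79b*, *Cd2*, *Cd3d* and *Cd3g* were above every WT mouse, and the other markers of both lists were not.

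Some myeloid markers were also higher in mouse 2276 than in the WT mice, and others were not. The 8 neutrophil markers summed to 2.54 to 7.24 FPKM in WT mice and to 20.9, 138 and 65.4 FPKM in HrasG12V mice 2276, 2278 and 2279, of which *S100a8* and *S100a9* made up most in mouse 2276 (9.06 and 10.1 FPKM). *Lcn2*, the neutrophil lipocalin, was at 1.23 FPKM in mouse 2276, below every WT mouse, and *Mpo*, the peroxidase of neutrophil granules, was listed at 0 in mouse 2276 and in WT mice 2277 and 2281. The 7 macrophage markers found among the symbols, of 8 listed, summed to 55.4 to 67.2 FPKM in WT mice and to 85.1, 113 and 62.35 FPKM in mice 2276, 2278 and 2279. The sum of mouse 2279 lay within the WT range, but its markers differed. In mouse 2279 *Cd68* and *C1qa* were above every WT mouse, *Mrc1* and *Cd163* were below, and *Csf1r*, *C1qb* and *C1qc* lay within the WT range. In mouse 2276 the complement genes *C1qa*, *C1qb* and *C1qc* were above every WT mouse, *Cd68*, *Csf1r* and *Mrc1* lay within the WT range and *Cd163*, a scavenger receptor, was below it. Of the 52 genes tested from the 9 marker lists, 16 had a higher and 2 a lower level at an unadjusted limma p below 0.05, against 10.2% of all genes tested in either direction. At a limma adjusted p below 0.05 the number was 0. With 1 mouse left out the unadjusted calls ran from 7 to 33, against 4.54% to 29.8% of all genes. Without mouse 2278 they were 4 higher and 5 lower, against 9.69% of all genes. Of these 52 entries, 17 had a WT mean under 0.5 FPKM and passed the filter through the HrasG12V group, 9 of the 16 higher calls among them. The other 35 gave 7 higher and 2 lower calls. The part of these cells in the *Dok2* and *Dok3* values was not tested.

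Set against the leukocyte markers within each library, *Dok3* had HrasG12V mice on both sides of the WT mice. Its FPKM divided by the geometric mean of the 6 leukocyte markers (each plus 0.1) was 0.364, 0.386 and 0.684 in WT mice and 0.273 and 0.252 in HrasG12V mice 2278 and 2279, below every WT mouse. In mouse 2276 the quotient was 1.20, the highest of the 6. *Dok2* gave 0.449 to 0.635 in WT mice, 0.734 in mouse 2276, and 0.129 and 0.115 in mice 2278 and 2279. Divided by the geometric mean of the 7 macrophage markers, in contrast, *Dok3* was 0.1002 to 0.185 in WT mice and 0.241, 0.463 and 0.773 in HrasG12V mice 2276, 2278 and 2279, with no overlap. *Dok2* over the macrophage markers did overlap. Against the neutrophil, B cell and T cell markers the *Dok3* quotient overlapped, with mice 2278 and 2279 below every WT mouse. Over B cell markers it was 3.78 to 7.06 in WT mice and 10.7, 0.570 and 0.645 in mice 2276, 2278 and 2279. Against endothelial, Schwann cell and fibroblast markers it was higher in every HrasG12V mouse, and against muscle fiber markers it overlapped. Such quotients show unequal levels within a library and not which of the genes differed.

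**Figure D3:**
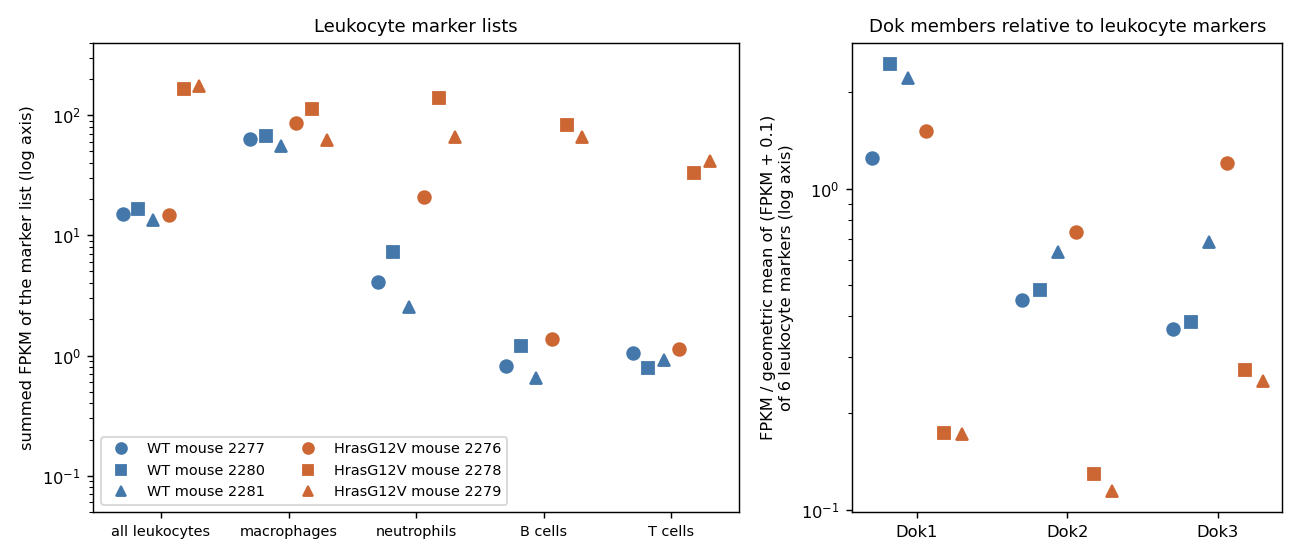
Left, summed FPKM of 5 lists of leukocyte marker genes (y axis, log scale) in each of the 6 mice. Right, FPKM of Dok1, Dok2 and Dok3 divided by the geometric mean of 6 leukocyte markers (y axis, log scale). HrasG12V mice 2278 and 2279 had summed leukocyte markers of 165 and 176 FPKM against 13.4 to 16.5 in WT mice, and the quotient of Dok3 was highest in mouse 2276.

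Markers of other cell types of the muscle were summed in the same way. The 6 endothelial markers summed to 161 to 196 FPKM in WT mice and to 139 to 140.002 FPKM in HrasG12V mice, and *Cdh5* and *Tie1*, which are specific to endothelium, passed the unadjusted p with lower levels (log2 fold changes -0.66 and -0.58, limma adjusted p = 0.382 for both). With libraries rescaled to the same total FPKM, marker calls were 10 higher and 0 lower, so neither gene was then called lower. The 5 Schwann cell markers summed to 135, 372 and 171 FPKM in WT mice 2277, 2280 and 2281 and to 228, 517 and 619 FPKM in HrasG12V mice 2276, 2278 and 2279. All 5 had a log2 fold change above 0, and *Pmp22*, a myelin protein gene, passed the unadjusted p (0.99, SE 0.38, limma adjusted p = 0.481). WT mouse 2280, which had the highest *Dok1*, also had the highest Schwann cell and fibroblast marker sums among WT mice. Its fibroblast sum was 2907 FPKM against 1401 and 1817 FPKM, and *Col1a1* made up 2040 FPKM of it. *Col3a1* was also highest in WT mouse 2280, whereas *Dcn* and *Lum* were higher in WT mouse 2281 and *Pdgfra* was lowest in 2280. In HrasG12V mice 2276, 2278 and 2279 the fibroblast sum was 646, 2513 and 749 FPKM, below every WT mouse in 2276 and 2279, and 0 of its 5 genes passed the unadjusted limma threshold. Of the 4 muscle fiber genes that passed the filter, *Ckm*, *Tnnt3* and *Myh1* held entries of 0, so no test of that list is given.

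Genes whose products meet Dok proteins were examined next, 37 in all, of which 36 passed the filter. Of these, 7 had a higher and 0 a lower level in HrasG12V muscle at an unadjusted limma p below 0.05, against 5.18% and 4.99% of all genes tested. They included *Csk*, *Lck*, *Cd2*, *Cd79b*, *Lat* and *Musk*, and *Cd2* and *Cd79b* are also among the lymphocyte markers above. By limma adjusted p, 0 of the 36 passed, against 0.0599% of all genes tested. Of the 7 calls, 5 came from 7 genes with a WT mean under 0.5 FPKM, which passed the filter only through the HrasG12V group where they were high, so these calls are no support. The other 29 genes gave 2 calls, *Csk* and *Musk*. *Csk* passed in 1 of the 6 sets with 1 mouse left out. Without mouse 2276 the number called was 16, the 7 among them, at a background of 29.8%. With any other mouse left out it was 2 to 4, at backgrounds of 4.54% to 11.5%. Without mouse 2279 the calls were 1 higher and 3 lower.

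Among the 8 proteins that bind phosphorylated Dok tails, *Rasa1*, the p120RasGAP gene, was at 6.24, 7.03 and 6.97 FPKM in the WT group against 4.13, 7.41 and 7.72 FPKM in HrasG12V mice 2276, 2278 and 2279 (log2 fold change -0.12, SE 0.26), with overlap. *Grb2*, the adaptor that Dok3 binds, was at 26.1 to 31.9 FPKM in the WT group against 41.7, 28.5 and 27.4 FPKM in the HrasG12V mice (0.16, SE 0.22). *Csk*, whose kinase silences Src kinases, was the 1 gene past the unadjusted p in this list, at 6.97 to 7.79 FPKM against 7.87, 15.9 and 14.0 FPKM (log2 fold change 0.72, SE 0.27, limma adjusted p = 0.481). *Inpp5d*, the SHIP1 gene, had the largest log2 fold change of the list at 0.80 (SE 0.50), with 4.64 and 4.13 FPKM in mice 2278 and 2279 and 1.17 FPKM in mouse 2276, below the WT range of 1.39 to 1.71 FPKM. *Crk* and *Crkl* were lower in every HrasG12V mouse (log2 fold changes -0.38 and -0.35, SE 0.18 and 0.17) without passing the unadjusted p. The median log2 fold change of this list was -0.14, against -0.0303 over all genes tested.

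Among the cytoplasmic tyrosine kinases a gene of T cells had the highest log2 fold change. *Lck*, the kinase of T cells, was at 0.0503 to 0.0855 FPKM in the WT group against 0.123, 6.58 and 9.50 FPKM in HrasG12V mice 2276, 2278 and 2279 (log2 fold change 3.90, SE 1.39), with the levels of mice 2278 and 2279 alone taking it past the filter. The broadly expressed *Abl1* had the lowest log2 fold change of the 9 kinases, -0.0586 (SE 0.16).

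Leukocyte receptors and adaptors whose signals involve Dok proteins included *Cd79b*, *Cd2* and *Lat*, which passed the filter through the HrasG12V group and are described without a p. *Cd79b*, a chain of the B cell receptor, was at 0.345 to 0.486 FPKM in the WT group against 1.06, 18.9 and 16.0 FPKM in HrasG12V mice 2276, 2278 and 2279 (log2 fold change 3.84, SE 1.03). *Cd2*, a T cell surface receptor, and *Lat*, the adaptor downstream of the T cell receptor, had log2 fold changes of 3.55 (SE 1.16) and 3.40 (SE 1.23). *Fcgr2b*, the inhibitory receptor for IgG, was at 1.64 to 2.71 FPKM in the WT group against 2.07, 5.94 and 2.53 FPKM in the HrasG12V mice. *Csf1r* and *Tlr4*, which act in macrophages, overlapped between genotypes (log2 fold changes 0.19, SE 0.33, and 0.12, SE 0.38). *Cd200r1*, whose inhibitory signal passes through Dok2, was listed at 0 in mouse 2276 and did not pass the filter.

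Receptor kinases outside leukocytes differed from each other. *Musk*, the receptor that Dok7 activates at the neuromuscular junction, was at 4.61, 5.94 and 3.20 FPKM in the WT group against 6.004, 9.83 and 13.7 FPKM in HrasG12V mice 2276, 2278 and 2279 (log2 fold change 1.05, SE 0.35, limma adjusted p = 0.448). With 1 mouse left out at a time, *Musk* passed the unadjusted p in 2 of the 6 sets of mice. *Dok7* was at 7.43, 7.99 and 9.48 FPKM in the WT group against 9.55, 5.27 and 4.75 FPKM in mice 2276, 2278 and 2279 (-0.40, SE 0.28), the same order of HrasG12V mice as for *Dok4* and *Dok5*. *Ntrk3*, the neurotrophin-3 receptor, had the highest log2 fold change of this list at 1.254 (SE 0.61). Its WT mean was 0.353 FPKM, so it passed the filter only through the HrasG12V group and is described without a p. *Ret*, the receptor of the GDNF family, had the lowest at -0.46 (SE 0.55) and did not pass the unadjusted p. In the list of other PTB docking proteins 0 of 6 genes had an unadjusted limma p below 0.05, with *Frs2* lowest at -0.50 (SE 0.34) and *Shc1* highest at 0.0839 (SE 0.14).

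**Figure D4:**
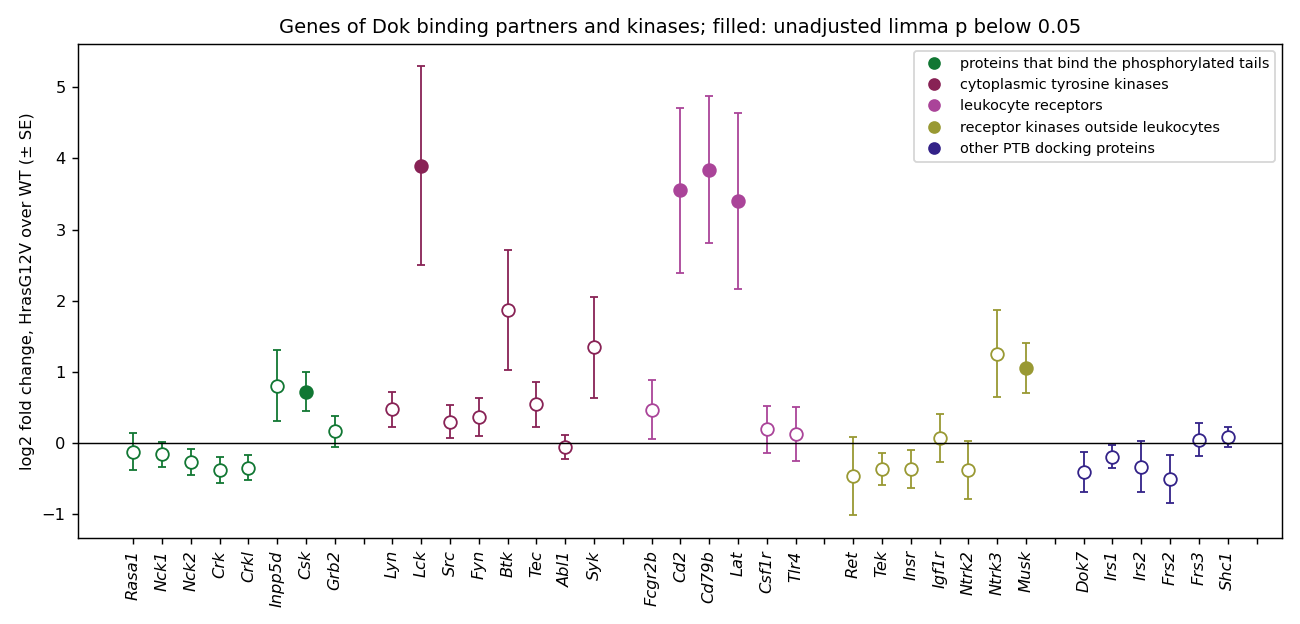
Log2 fold change of HrasG12V over WT (y axis, with SE) of 35 genes of Dok binding partners, kinases and receptors (x axis), colored by list. Filled circles mark the 6 plotted genes past the unadjusted limma threshold of 0.05, all of them with higher levels in HrasG12V, and at an adjusted limma p below 0.05 there was none.

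Likeness to each member was measured by Pearson's r of log2(FPKM + 0.1) over the 6 mice, both genotypes together, among 11869 genes with a mean of at least 1 FPKM. It is a description with no test, since 6 points shared by 2 genotypes give high values for many genes. For *Dok3*, 341 genes (2.87%) had r of 0.9 or more, led by *Gpsm3* (r = 0.997), *Mob3a* (0.992), *Cyba* (0.992), *Rragc* (0.991) and *Mapk11* (0.991). *Gpsm3* was at 1.67, 1.83 and 2.00 FPKM in the WT group against 2.91, 6.22 and 5.94 FPKM in HrasG12V mice 2276, 2278 and 2279, the order of mice seen for *Dok3*. *Dok2* was most like *Ctse* (0.998), *H2-DMa* (0.997), *Marcksl1* (0.994), *Aif1* (0.993) and *Cdc25b* (0.993). *Ctse* and *Aif1* were at 0.138 to 0.190 and 0.452 to 0.628 FPKM in WT mice. These 2 genes reached the mean of 1 FPKM only through the HrasG12V group, so their rank partly follows from that limit.

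*Dok4* was most like *Apool* (0.999), *Metrnl*, *1810021B22Rik*, *Acss2* and *Cdc16* (0.993 to 0.994), and *Dok5* most like *Mrps27* (0.998), *Chchd4*, *Mrpl48*, *Ufc1* and *Exosc3* (0.995 to 0.997). *Mrps27* was at 14.4 to 15.5 FPKM in the WT group against 28.7, 14.3 and 9.82 FPKM in HrasG12V mice 2276, 2278 and 2279. *Dok1* stood alone by this measure. Only 15 of the 11869 genes reached r of 0.9 with it, led by *Nlgn2* (0.987), *Srgap3* (0.954), *Fam57a* (0.953), *Fam26e* (0.940) and *Vit* (0.936), against 1042 genes with *Dok5*. Within the family, r was 0.98 between *Dok2* and *Dok3* and 0.92 between *Dok4* and *Dok5*, and it was 0.03 between *Dok1* and *Dok3*.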

How the data were processed

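The 6 gastrocnemius samples gave 1 stranded mRNA library each, read from a single end over 50 bases. According to the methods and the submitters' processing notes, the authors mapped reads with TopHat to GRCm38 (mm10) and computed FPKM with Cufflinks and Cuffnorm. The deposited values are these FPKM per gene symbol, 1 file per mouse. The tool versions and the gene models behind these values were not given in the sources used here. Small FPKM were examined for multiples of 1 read. At most 2.13% of the ratios between 2 libraries fell in the fullest interval, so no reads could be recovered. The methods give 1 approximate read number for all samples, and the files give no depth per library, so precision was judged from the spread between mice. The mice were littermates by the methods, and the labels do not say which shared a litter.

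Genotypes were taken from the sample titles. The 13359 genes whose FPKM averaged 0.5 or more were compared as log2(FPKM + 0.1) with limma 3.58.1 in R 4.3.3 (trend, empirical Bayes, no covariate) and Benjamini-Hochberg adjustment over all of them, at 0.05. The log2(FPKM + 0.1) scale understates changes of low genes. The fit was tested on simulated data. The Dok members and all gene lists were chosen with earlier results of these data known. Named genes were all members, partner genes past the unadjusted p or highest or lowest in their list, marker sums with up to 2 of the most abundant markers, and the 5 genes most like each member, microRNA and small nucleolar RNA entries left out. Other markers named, *Polr2c*, *Crkl*, *Grb2*, *Rasa1*, *Dok7*, *Csf1r*, *Fcgr2b* and *Cd200r1* were added after their values were seen. The values of 1 partner gene are not reported here, and the counts of genes called include it. Alternatives were other pseudocounts, filters, scalings and array weights, and each mouse left out. Mouse 2276 alone against WT was planned for the members and added after seeing the data for the counts and for the difference between leukocyte and other members. Gene positions and transcripts came from GENCODE vM21 on GRCm38 and the promoter from RefSeq (GRCm38.p6). Figures used Python 3.11.15 and matplotlib 3.10.9.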

Additional observations from a re-analysis of the deposited data

How the results depend on the processing

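The log2 fold changes of *Dok2* and *Dok3* kept their sign in all 12 alternatives, and those of *Dok1*, *Dok4* and *Dok5* in 10, 10 and 9 of 12. The cause of these shifts was not tested. With HrasG12V mouse 2276 alone against the WT mice, the values were -0.537 for *Dok1*, 0.257 for *Dok2*, 1.09 for *Dok3*, 0.462 for *Dok4* and 1.14 for *Dok5*, and the difference between leukocyte and other members reversed to -0.532. With 1 mouse left out at a time, that difference ran from 0.535 to 1.84, *Dok2* from 0.737 to 1.30, *Dok3* from 1.79 to 2.54, *Dok1* from -0.436 to 0.0773, *Dok4* from -0.586 to 0.0322 and *Dok5* from -0.521 to 0.503. Quantile normalization gave -0.0916 for *Dok5*, and the median of all genes moved by less than 0.1 under each scaling. The 7 partner and 18 marker genes called became 4 and 10 with libraries rescaled to the same total FPKM and 16 and 33 with array weights. Without a filter 8 marker genes were called, against 8.13% of all genes. With 1 mouse left out the partner and marker calls were 2 to 16 and 7 to 33, highest without mouse 2276 (29.8% of all genes). Without WT mouse 2277, WT mouse 2281 or mouse 2278, 2 partner genes were called, against 4.75%, 4.54% and 9.69% of all genes. Partner calls were 1 higher and 1 lower without mouse 2278 and 1 higher and 3 lower without mouse 2279, and marker calls 4 higher and 5 lower without mouse 2278. Of all genes, 9.69% were called without mouse 2278 and 11.5% without mouse 2279. With mouse 2276 alone, assumed to vary like the WT mice, 12 partner genes were called (4 higher, 8 lower), at a background of 47.2%. All genes called fell from 10.2% to 5.33% with the same total FPKM and rose to 22.8% with array weights, and ran from 4.54% to 29.8% with 1 mouse left out. No paired analysis was possible because the labels do not say which mice shared a litter. Since the files give no depth per library, no detection limit can be set for low genes such as *Dok6*.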
